A study of Mus musculus with 9 samples.

Results

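Adhesion G protein-coupled receptors (GPCRs) of the G subfamily were followed in mouse primary myoblasts, the dividing progeny of muscle satellite cells, after addition of BMP4 or of its antagonist GREM1. The genes were Adgrg1, Adgrg2, Adgrg3 and Adgrg6, 4 of 24011 named genes, and were taken by gene symbol. Each had 1 probe set, and all 4 lay above the filter on dim values on all 9 arrays. The family was selected on 2 measured values, the difference of Adgrg3 between BMP4 and control and that of Adgrg1 between GREM1 and control, so those 2 are described here without a p-value. The rule set no threshold on a value, and the genes were taken by name.

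The 3 groups, each of 3 samples with 1 array per sample, were myoblasts given BMP4 at 100 ng/ml, myoblasts given GREM1 at 500 ng/ml and mock-treated control myoblasts. All groups had been grown with 20% fetal bovine serum and basic FGF, were moved to 2% horse serum, in which myoblasts begin to form muscle fibres, and gave RNA after 24 h. BMP4 is a secreted ligand that signals through SMAD transcription factors, while GREM1 captures BMPs outside the cell before they can reach a receptor. Nothing in the labels tells whether replicates came from separate cultures, and every p-value here rests on the spread among these 9 samples alone, which may be technical. The probe set values are log2 expression from robust multi-array average (RMA), and a difference of 1 is a factor of 2. Of 8 myogenic markers all passed the filter, with a mean level per array of 8.85 to 8.97 with BMP4, 8.94 to 9.22 with GREM1 and 8.50 to 8.93 in control cells. Of the markers of other cell types on the array, 6 of 11 leukocyte markers passed the filter (Csf1r, Fcer1g, Itgam, S100a9, Siglecf and Tyrobp, with Ptprc, Cd3e and Cd79a among those that did not), as did 2 of 6 endothelial and 3 of 4 pericyte markers. Of 5 fibroblast markers Thy1 passed (5.55 with BMP4, 5.73 with GREM1 and 5.60 in control cells), and Pdgfra, Dcn, Lum and Dpt did not.

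Adhesion GPCRs carry a long extracellular region that holds a self-cleaving domain, and the stub left at the membrane after cleavage acts as a tethered agonist of the receptor. The extracellular region binds matrix proteins or proteins of other cells, so these receptors read contact and tension. Adgrg1 (GPR56) binds type III collagen and transglutaminase and signals mainly through G proteins that activate RhoA, and in mouse muscle it is known to be present in early differentiating myoblasts. Adgrg3 (GPR97) is known mainly from granulocytes and other leukocytes. Adgrg2 (GPR64) is a receptor of the epididymis and efferent ducts needed for male fertility. Adgrg6 (GPR126) drives myelination by Schwann cells, binds type IV collagen and laminin and raises cyclic AMP.

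Adgrg1 and Adgrg3 are consecutive protein-coding genes on chromosome 8, Adgrg6 lies on chromosome 10 and Adgrg2 on chromosome X in the RefSeq annotation of GRCm38.p6. Between BMP4 and GREM1, the neighbours Adgrg3 and Adgrg1 gave the largest differences of the family, in opposite directions. For this reason the sequences around their starts are shown, from 250 bases before to 50 bases after each start. They are from RefSeq on GRCm38.p6, with 2 starts taken for Adgrg1, and each is written 5′ to 3′ on the strand of the gene. The annotated spans of Adgrg1 and Adgrg3 begin upstream of these windows, at 94974756 and 95017113. Those of Adgrg2 and Adgrg6 also reach upstream of their windows. The motif counts below therefore hold for the windows used and not for every annotated start. Capitals mark GGCGCC, the GC-rich element bound by BMP-activated SMADs, and CAGAC, the short SMAD-binding box, on either strand, so that GTCTG is the box on the other strand.
Adgrg3, chr8:95017442-95017741, plus strand: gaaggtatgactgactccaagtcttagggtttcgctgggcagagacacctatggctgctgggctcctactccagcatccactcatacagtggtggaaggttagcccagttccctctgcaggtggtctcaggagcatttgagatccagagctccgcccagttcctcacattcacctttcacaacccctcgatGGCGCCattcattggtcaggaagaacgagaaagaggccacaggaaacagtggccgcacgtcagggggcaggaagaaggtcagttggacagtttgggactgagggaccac
Adgrg1 first start, chr8:94976859-94977158, plus strand: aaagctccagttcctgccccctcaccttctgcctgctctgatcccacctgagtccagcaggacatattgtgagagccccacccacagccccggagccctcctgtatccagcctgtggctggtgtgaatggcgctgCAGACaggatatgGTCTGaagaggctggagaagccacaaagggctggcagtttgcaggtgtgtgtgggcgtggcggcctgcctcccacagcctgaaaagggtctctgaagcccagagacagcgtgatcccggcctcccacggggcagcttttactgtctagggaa
Adgrg1 second start, chr8:94984149-94984448, plus strand: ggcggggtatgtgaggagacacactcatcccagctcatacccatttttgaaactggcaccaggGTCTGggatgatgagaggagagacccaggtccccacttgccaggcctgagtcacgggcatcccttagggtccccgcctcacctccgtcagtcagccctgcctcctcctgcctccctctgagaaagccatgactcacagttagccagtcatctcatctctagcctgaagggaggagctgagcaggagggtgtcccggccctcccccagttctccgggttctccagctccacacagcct
The Adgrg3 window held 1 GGCGCC and 0 CAGAC. The windows of the first and second Adgrg1 starts held 2 and 1 CAGAC and 0 GGCGCC. Of all 32851 promoter windows of this length 11.9% held GGCGCC and 49.6% held CAGAC. The E-box CANNTG, the motif of MyoD-type factors, was found 3 times at Adgrg3 and 2 times and 1 time at the Adgrg1 starts, and in 72.3% of all windows. No match overlapped another. The GGCGCC element was also present once at Adgrg2, and the Adgrg6 window held neither SMAD motif. The cyclic AMP response element TGACGTCA and the CArG box of SRF were in none of the 5 windows of these genes, and in 1.79% and 1.63% of all windows. A match is a description of the sequence and not a binding site shown in these cells.

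Adgrg1 was high in the GREM1 cells, and its BMP4 and control arrays overlapped. Its log2 levels were 8.39, 8.43 and 8.92 with GREM1 and 6.89, 6.89 and 7.14 with BMP4, against 6.97, 6.96 and 6.68 in control cells. Every GREM1 array lay above every other array, with a gap of 1.25 to the highest BMP4 array and 1.42 to the highest control array. The GREM1 mean of 8.58 ± 0.30 stood 1.71 ± 0.15 (SE) above the control mean of 6.87 ± 0.16 (SD, n = 3 each), which is 3.27-fold. Of the 17142 genes tested 9 had a larger absolute difference between GREM1 and control. That rank is no support here, since the family was selected on this difference. BMP4 minus GREM1 was -1.61 ± 0.15. With BMP4 the mean was 6.97 ± 0.15, and its difference from control of 0.10 did not pass (95% interval -0.24 to 0.45, limma adjusted p = 0.886). Leaving out any array kept the GREM1 difference between 1.54 and 1.81. Of the 8 myogenic markers 2 rose with GREM1 too. They were the cadherin Cdh15 (8.71 ± 0.029 with GREM1 and 7.80 ± 0.23 in control cells, limma adjusted p = 0.00348) and the integrin Itga7 (9.56 ± 0.041 with GREM1 and 8.56 ± 0.24 in control cells, adjusted p = 0.00321). With the replicate number as a block the muscle regulator Myog also rose (by 0.90, adjusted p = 0.0167, and 0.0947 without the block). Myf5, an early regulator, fell (by 0.85, adjusted p = 9.74e-04 with the block and 0.144 without it). The pericyte markers moved too, in both directions. Abcc9, a potassium channel subunit, was 7.02 ± 0.24 with GREM1 and 6.14 ± 0.35 in control cells (adjusted p = 0.0528, or 9.16e-04 with the block). It was 0.91 lower with BMP4 than with GREM1 (adjusted p = 0.0370). That call was lost with no filter and without any BMP4 array or GREM1 replicate 1 or 2 (adjusted p up to 0.136). The proteoglycan Cspg4 was 5.95 ± 0.055 with BMP4 and 5.40 ± 0.11 with GREM1 (adjusted p = 0.0132, or 0.0596 without GREM1 replicate 1). The mean level of the 4 pericyte markers was 5.20 to 5.40 with BMP4, 5.15 to 5.25 with GREM1 and 4.95 to 5.10 in control cells. The part of these myogenic and pericyte markers in the Adgrg1 values was not tested, and in bulk samples fewer cells of a type and less RNA per cell cannot be told apart.

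Adgrg3 was highest with BMP4, lowest with GREM1 and between them in control cells. Its levels were 6.66, 6.74 and 6.91 with BMP4, 5.19, 5.23 and 5.43 with GREM1 and 5.80, 5.99 and 5.72 in control cells. No 2 of the groups overlapped. The BMP4 mean of 6.77 ± 0.13 was 0.94 ± 0.11 (SE) above the control mean of 5.84 ± 0.14 (SD, n = 3 each), which is 1.92-fold. It fell with GREM1, to 5.28 ± 0.13 against 5.84 ± 0.14 in control cells, by 0.55 ± 0.11 on the log2 scale (1.47-fold lower, 95% interval -0.80 to -0.31, limma adjusted p = 0.0244). That test shares its 3 control arrays with the difference that drew attention to the gene. It did not pass without control replicate 1 or 2 or GREM1 replicate 1 or 2 (adjusted p = 0.0601, 0.0576, 0.0960 and 0.0949) or when only these 2 groups were fitted (adjusted p = 0.0505), and the difference then lay between -0.57 and -0.48. BMP4 minus GREM1 was 1.49 ± 0.11, and between arrays of the same replicate number it was 1.48, 1.51 and 1.49. The mean level of the 11 leukocyte markers on the array was 3.81 to 3.88 with BMP4, 3.82 to 3.91 with GREM1 and 3.81 to 3.94 in control cells, and 0 of the 6 that passed the filter changed in any comparison (limma; 1 had an unadjusted p under 0.05 with BMP4 against control, 0 with GREM1 against control and 1 with BMP4 against GREM1).

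**Figure D1:**
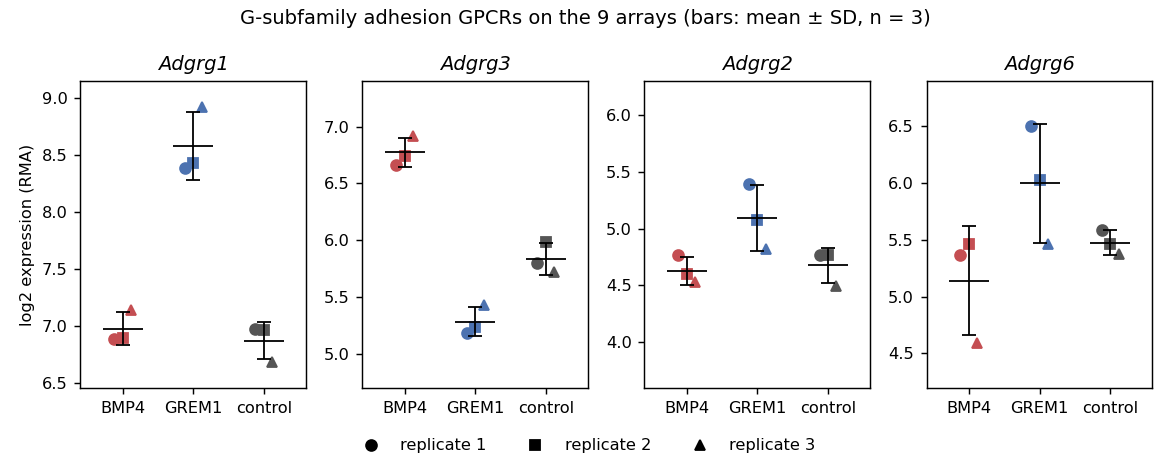
Log2 expression (RMA) of the 4 genes on each of the 9 arrays, with BMP4, GREM1 and control groups on the x axis. Points are arrays (circle, square and triangle for replicates 1, 2 and 3) and bars give mean ± SD (n = 3). Every panel spans the same width in log2 units but is centred on its own gene, so heights compare only within a panel. Adgrg1 stands at 8.39 to 8.92 with GREM1, above all other arrays, and the 3 groups of Adgrg3 do not overlap.

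Adgrg2 was highest on the GREM1 arrays. Its levels were 5.40, 5.08 and 4.82 with GREM1 and 4.76, 4.60 and 4.53 with BMP4, against 4.76, 4.76 and 4.50 in control cells. The lowest GREM1 array lay only 0.052 above the highest BMP4 and the highest control array, and BMP4 and control arrays overlapped. The value on BMP4 replicate 1 and on control replicates 1 and 2 was the same number, as happens on at least 2 arrays for 43.2% of the genes tested. GREM1 averaged 5.10 ± 0.29 and control 4.68 ± 0.15 (SD, n = 3 each), a difference of 0.42 ± 0.15 (SE) that did not pass over all genes (limma adjusted p = 0.145). With the replicate number as a block the same difference passed (SE 0.094, adjusted p = 0.0239). BMP4 minus control was -0.046 (95% interval -0.38 to 0.28, adjusted p = 0.951). BMP4 minus GREM1 was -0.47 ± 0.15 (adjusted p = 0.103, or 0.0128 with the block).

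Adgrg6 spread widely within the GREM1 and BMP4 groups. Its levels were 6.50, 6.03 and 5.46 with GREM1 and 5.36, 5.46 and 4.59 with BMP4, against 5.59, 5.46 and 5.37 in control cells. Replicate 3 was the lowest array of each group, as it was for Adgrg2, and all groups overlapped. GREM1 averaged 5.99 ± 0.52 and control 5.47 ± 0.11 (SD, n = 3 each), a difference of 0.52 ± 0.28 (SE) that did not pass (limma adjusted p = 0.333). BMP4 averaged 5.14 ± 0.48, and BMP4 minus control was -0.33 ± 0.28 (adjusted p = 0.778). BMP4 minus GREM1 was -0.86 ± 0.28 (adjusted p = 0.113, or 0.0104 with the replicate block). It was -1.13, -0.57 and -0.87 between arrays of replicate numbers 1, 2 and 3. The Schwann cell marker Sox10 was 4.68 with GREM1 and 4.67 in control cells, and 5 of the 6 Schwann markers on the array passed the filter. The mean level of the 6 was 4.87 to 5.14 with BMP4, 5.23 to 5.38 with GREM1 and 4.96 to 5.28 in control cells. Among them Erbb3, a neuregulin receptor that myoblasts also make, was 8.72 with GREM1 and 7.54 in control cells (adjusted p = 0.146, or 0.00406 with the replicate block), and its part in the Adgrg6 values was not tested. The other Schwann markers did not follow Erbb3. The neurotrophin receptor Ngfr was 4.57 ± 0.13 with BMP4 and 4.75 ± 0.063 with GREM1, against 4.99 ± 0.087 in control cells, with all BMP4 and all GREM1 arrays below the control arrays (adjusted p = 0.231 and 0.180). The median difference of the 5 tested markers between GREM1 and control was -0.0058.

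**Figure D2:**
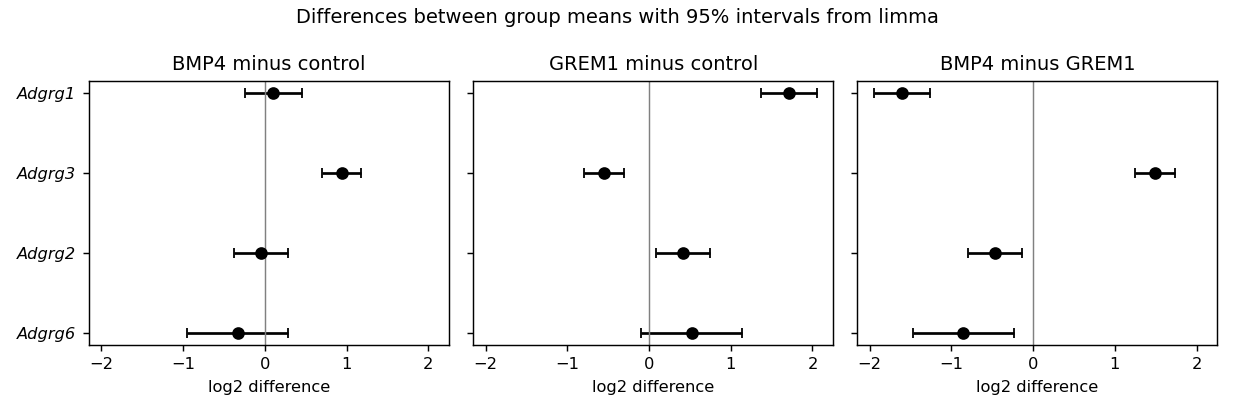
Log2 differences between group means for the 4 genes, one panel per comparison, with points for the difference and bars for the 95% interval from limma. Adgrg1 and Adgrg3 lie on opposite sides of 0 for GREM1 minus control, at 1.71 and -0.55.

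Counted over the 4 genes, 1 (Adgrg3) passed in BMP4 against control, where 0.117% of all genes tested did (0.0933% higher and 0.0233% lower). In GREM1 against control 2 passed (Adgrg1 higher and Adgrg3 lower), where 4.28% of all genes did (2.07% higher and 2.21% lower). The same 2 passed in BMP4 against GREM1 (Adgrg3 higher and Adgrg1 lower), where 6.45% of all genes did (3.62% higher and 2.83% lower). Nothing is read from these counts, since 2 of the calls are those the family was chosen for. The BMP4 and control arrays did not overlap for 1 of the 4, and for 11.2% of all genes tested. The GREM1 and control arrays did not overlap for 3 of the 4 (Adgrg1, Adgrg2 and Adgrg3), and for 24.0% of all genes. BMP4 and GREM1 arrays did not overlap for the same 3, and for 24.5% of all genes. Nothing is read from these counts of non-overlap either, since they hold the differences the family was chosen for or reuse their arrays. The comparisons with control share the 3 control arrays. Without control replicate 1, 2 or 3, or without BMP4 replicate 2 or 3, the count of calls for BMP4 against control was 0. The Adgrg3 difference then stayed between 0.87 and 1.01.

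The genes around the pair on chromosome 8 were read to see whether neighbours differed too. Of the 5 protein-coding genes on the array on either side, 9 of 10 passed the filter. None passed in BMP4 against control (limma, with unadjusted p under 0.05 for Ciapin1, Dok4 and Ccdc102a), where differences ran from -0.24 to 0.54. With GREM1 against control 1 of 9 passed, and differences ran from -0.45 to 0.32. That gene was Ccdc102a, a coiled-coil protein gene on the Adgrg1 side. It had 5.85 ± 0.13 with GREM1 and 6.29 ± 0.026 in control cells, and fell by 0.45 ± 0.11 on the log2 scale (adjusted p = 0.0493). It lost the call without any array other than BMP4 replicate 3 (adjusted p up to 0.161) and under 5 other settings, an intensity trend and array centring among them. Ccdc102a averaged 6.61 ± 0.18 with BMP4, which was 0.77 ± 0.11 above GREM1 (adjusted p = 0.00263, and 0.0151 at most when arrays were left out or settings changed). Dok4, an adaptor of receptor tyrosine kinases on the same side, was 0.57 ± 0.12 higher with BMP4 than with GREM1 (5.28 ± 0.046 and 4.71 ± 0.11, adjusted p = 0.0199). Dok4 lost that call without any BMP4 array or GREM1 replicate 2 or 3 (adjusted p up to 0.0794). On the Adgrg3 side, the tested genes Kifc3, Cngb1, Tepp and Zfp319 did not pass in any comparison (lowest adjusted p = 0.452).

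**Figure D3:**
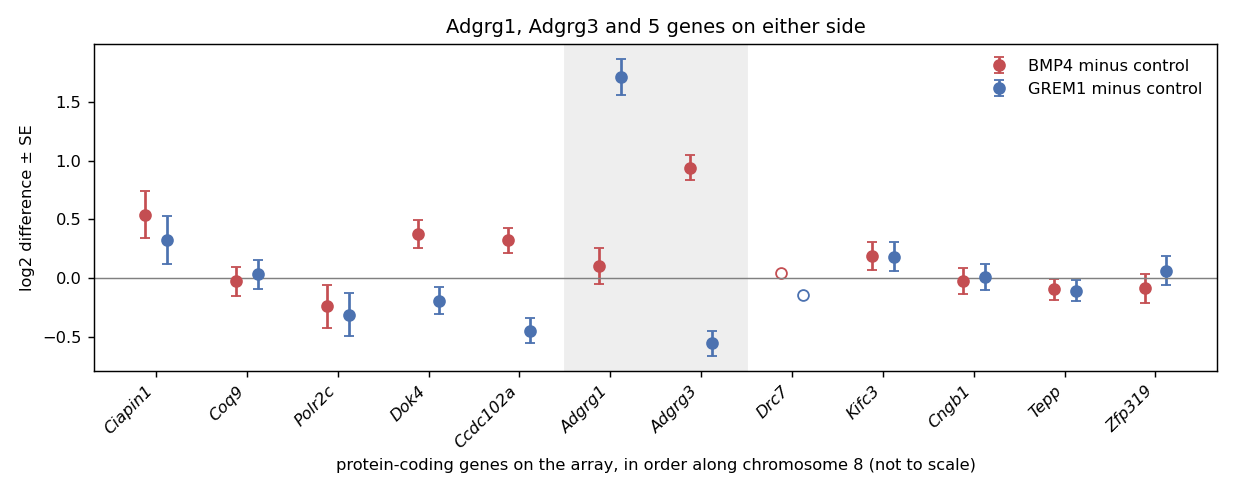
Log2 differences from control (± SE, open circles for a gene below the filter, without SE) for BMP4 and GREM1, with genes placed in their order along chromosome 8 and not to scale. The shaded stretch holds Adgrg1 and Adgrg3. Adgrg1 with GREM1 (1.71) and Adgrg3 with BMP4 (0.94) stand highest. Dok4, Ccdc102a, Adgrg3 and Drc7, the last below the filter, lie above 0 with BMP4 and below 0 with GREM1.

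The other adhesion GPCRs were a list of 25 genes, of which 24 were on the array and 12 passed the filter. The remaining G-subfamily receptors on the array, Adgrg4 and Adgrg7, did not pass it (3.42 and 3.52 with GREM1, 3.54 and 3.51 in control cells). Against control, 0 of 12 passed with BMP4 (limma, 3 at an unadjusted p under 0.05, and 0 with the replicate block) and 0 of 12 with GREM1 (2 at an unadjusted p under 0.05), with medians of 0.091 and -0.023 beside -0.0060 and -0.0057 over all genes tested. With the block 3 rose with GREM1, namely Adgre5 (CD97), Adgrl2 and Adgrl3, the last 2 being latrophilins. Adgrf4 was 0.78, Adgra1 0.32 and Adgrl1 0.31 above control with BMP4 (adjusted p = 0.324, 0.463 and 0.490). Between BMP4 and GREM1, 1 was higher and 1 lower with BMP4. Adgrf4, a receptor of the F subfamily, was 5.12 ± 0.24 with BMP4 and 4.05 ± 0.35 with GREM1 (difference 1.07 ± 0.20, adjusted p = 0.0120). The latrophilin Adgrl3, which binds adhesion proteins of other cells, was 6.67 ± 0.17 with BMP4 and 7.25 ± 0.16 with GREM1 (difference -0.57 ± 0.11, adjusted p = 0.0160). Adgrl3 lost this call without BMP4 replicate 1 or 2 (adjusted p = 0.0527 and 0.0597).

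**Figure D4:**
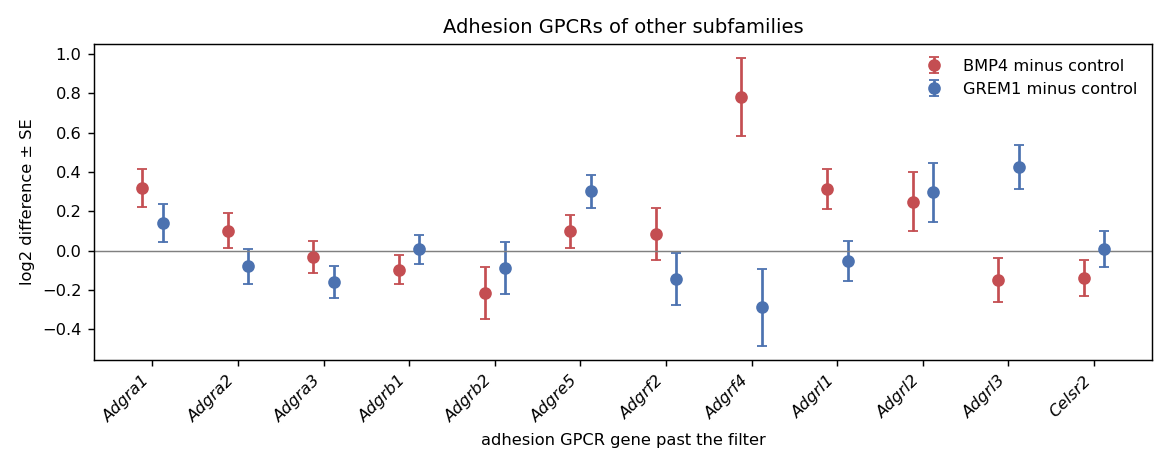
Log2 differences from control (± SE) for BMP4 and GREM1 in the 12 adhesion GPCR genes of other subfamilies that passed the filter. Adgrf4 with BMP4 (0.78) and Adgrl3 with GREM1 (0.42) lie farthest from 0, and none of these differences passed over all genes.

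Reported ligands and partners of these receptors were a list of 14 genes, all past the filter, and were read next. With BMP4 against control 0 passed (limma, 1 at an unadjusted p under 0.05, Cd81 at 0.34, and 0 with the block). With GREM1 1 rose, and with the replicate block 2 rose and 1 fell. The list medians were -0.0021 and -0.0086. Prnp, the prion protein, a ligand of Adgrg6 on Schwann cells, was 9.03 ± 0.21 with GREM1 and 8.26 ± 0.21 in control cells, and rose by 0.78 ± 0.15 (adjusted p = 0.0245). It lost the call without control replicate 1 or 3 or GREM1 replicate 1 or 2 (adjusted p up to 0.0953). Cd81, a tetraspanin that associates with Adgrg1, was 0.43 ± 0.13 above control with GREM1 (adjusted p = 0.106, or 0.0316 with the block). The Adgrg1 ligand Col3a1 was -0.52 ± 0.20 (adjusted p = 0.189, or 0.00775 with the block). Between BMP4 and GREM1, without a replicate block, Prnp passed and the other 13 did not (-0.82 ± 0.15, adjusted p = 0.0130), and it lost the call without BMP4 replicate 3 or GREM1 replicate 1 or 2 (adjusted p up to 0.0588).

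Downstream of the receptors, 14 of 15 G protein alpha subunit genes were tested. With BMP4 against control 0 passed (limma, 1 at an unadjusted p under 0.05, Gnao1 at -0.30, and 0 with the block). With GREM1 1 fell. Gnai1, an alpha subunit that inhibits adenylyl cyclase, was 7.84 ± 0.061 with GREM1 and 8.80 ± 0.22 in control cells, a difference of -0.95 ± 0.12 (adjusted p = 0.00433, at most 0.0283 over the alternatives). BMP4 cells had 8.91 ± 0.16, so BMP4 minus GREM1 was 1.07 ± 0.12 (adjusted p = 9.12e-04). Gna12 and Gna13, which link Adgrg1 to RhoA, differed from control by 0.019 and -0.022 with GREM1 (adjusted p = 0.940 and 0.904). Gnas, the stimulatory subunit used by Adgrg6, differed by 0.16 (adjusted p = 0.336). Gnaq was -0.40 in BMP4 minus GREM1 (adjusted p = 0.0363), a call lost without control replicate 2 or any BMP4 or GREM1 array (adjusted p up to 0.120). That call was also lost when arrays were centred on their medians (adjusted p = 0.0847). The list medians were 0.040 with BMP4 and 0.043 with GREM1.

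Genes of the RhoA arm, 14 tested of 15 listed, held 0 calls with BMP4 against control (limma, 1 at an unadjusted p under 0.05, Rhoc at 0.56, and 0 with the block). With GREM1 2 rose, and the list medians were 0.045 and 0.027. Srf, the transcription factor that RhoA signalling activates and that drives muscle genes, was 8.82 ± 0.019 with GREM1 and 8.36 ± 0.069 in control cells (difference 0.47 ± 0.081, adjusted p = 0.0163). Rhob, a RhoA-related GTPase, was 7.30 ± 0.064 and 6.90 ± 0.053 in these groups (difference 0.39 ± 0.074, adjusted p = 0.0213). Both lost the call without control replicate 1 or 3 or GREM1 replicate 1 or 2, and Rhob also without GREM1 replicate 3 (adjusted p up to 0.0664 for Srf and 0.0777 for Rhob). With only these groups fitted Rhob lost it too (adjusted p = 0.0538). Between BMP4 and GREM1, Srf (-0.45) and Rhob (-0.39) were lower with BMP4 and Nfatc1, an NFAT transcription factor, higher (0.44, adjusted p = 0.0112, 0.0136 and 0.0271). Rhob lost this call without GREM1 replicate 1 (adjusted p = 0.0545), and Nfatc1 without BMP4 replicate 1 or 3 or any GREM1 array (adjusted p up to 0.0971). Nfatc1 also lost it with only these groups fitted (adjusted p = 0.0545).

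Genes of the cyclic AMP arm, 21 tested of 22 listed, had medians of 0.10 with BMP4 and -0.11 with GREM1. Against control 0 passed with BMP4 (limma, 1 at an unadjusted p under 0.05, Prkar1b at 0.46, and 0 with the block). With GREM1 1 rose, and with the replicate block 3 rose and 1 fell. Prkaca, the catalytic subunit of protein kinase A, was 9.81 ± 0.13 with GREM1 and 9.17 ± 0.25 in control cells (difference 0.64 ± 0.14, adjusted p = 0.0384). It lost the call without control replicate 1 or 3, BMP4 replicate 1 or 2 or any GREM1 array (adjusted p up to 0.135). Prkaca also lost it with only these groups fitted, with quantile normalization once more and with no filter (adjusted p = 0.0670, 0.0764 and 0.0511). Between BMP4 and GREM1, without a replicate block, 4 were higher and 1 lower with BMP4. The 4 were the adenylyl cyclase Adcy3 (0.54) and the cyclic AMP phosphodiesterases Pde4a (0.59), Pde4b (0.48) and Pde4d (0.62), with adjusted p = 0.0330, 0.0223, 0.0372 and 0.0193. The lower gene was Prkaca (-0.55, adjusted p = 0.0495). Each of these 5 calls was lost without BMP4 replicate 1 and without GREM1 replicate 1, among other arrays, and the highest adjusted p was 0.114, 0.0922, 0.132, 0.0685 and 0.177 for Adcy3, Pde4a, Pde4b, Pde4d and Prkaca in this order. With only these groups fitted, Adcy3, Pde4a, Pde4b and Pde4d also lost the call. Prkaca lost it with no filter, among other settings.

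The genes whose levels followed each receptor most closely were taken by Pearson's r over the 9 arrays, from 15276 named genes. These r are descriptions, since the 9 arrays form 3 groups and a gene with similarly spaced group means can score high. Closest to Adgrg3 were Fabp7 (r = 0.984), a fatty acid binding protein, Whrn (0.984), a scaffold protein of hair cells, and Sdc3 (0.984), a heparan sulfate proteoglycan. Fabp7 was 7.75 ± 0.16 with BMP4, 3.76 ± 0.18 with GREM1 and 5.39 ± 0.046 in control cells. Closest to Adgrg1 were Asb7 (0.982), part of a ubiquitin ligase, the autophagy gene Atg9b (0.982) and the BMP co-receptor Rgma (0.979). Rgma was 7.66 ± 0.16 with GREM1, 6.49 ± 0.067 with BMP4 and 6.65 ± 0.12 in control cells. Closest to Adgrg2 were Sh2d4b (0.9945), the endocytic scaffold Itsn1 (0.987) and Fry (0.987), and to Adgrg6 the pyruvate dehydrogenase phosphatase Pdp1 (0.978), the cilium gene Bbs1 (0.978) and Snupn (0.976). None of these 12 genes lies on chromosome 8.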

How the data were processed

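The authors deposited 1 table of log2 expression values for 24973 probe sets on 9 arrays. Expression Console made them by RMA, per the submitters' processing notes, which normalizes between arrays. The chip definition and build were not given in the sources used here. Values ran from 1.80 to 12.7, and precision is set by how few arrays there are.

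A symbol was paired with 24015 probe sets. For 4 genes with several, the one of highest mean was taken. Testing required a value over the array's own 30th percentile (3.89 to 4.02) on 3 or more arrays, which kept 17142 genes. Groups were compared with limma 3.58.1 (R 4.3.3) over all 9 arrays, two-sided, with Benjamini-Hochberg adjustment over all genes tested and a threshold of 0.05. The fit was also run on simulated data with noise drawn independently for each array, which held no deviation shared by same-numbered arrays.

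The receptors, lists and naming rule were chosen with earlier results of these data known. Named were the receptors, list genes past the threshold or with the smallest p, and the 3 genes nearest each receptor by r. Chromosome 8 neighbours and list genes outside this rule were named after their values were seen. Replicate numbers come from the titles. Deviations of same-numbered arrays from their group means correlated in each pair of groups. The r was 0.170 to 0.580 for BMP4 and control, and 0.118 to 0.473 for GREM1 and control. It was 0.0885 to 0.423 for BMP4 and GREM1. Of the 9 arrays, 8 correlated best with an array of their own number among those of other groups. Alternatives were the replicate block, other fits, scalings and filters, and leaving out each array. Testing all probe sets, unnamed ones included, was added after seeing the data. An item withheld from this text is not reported here.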

Additional observations from a re-analysis of the deposited data

How the results depend on the processing

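The counts of receptors below are no support, since they hold the differences the family was chosen for or reuse their arrays. The count of receptors past the threshold for BMP4 against control was 1, and 0 when only these groups were fitted and between 0 and 1 when arrays were left out. For GREM1 against control it was 2, and 3 with the replicate block, 1 with only these groups fitted and between 1 and 2 when arrays were left out. For BMP4 against GREM1 it was 2, and 4 with the replicate block and between 2 and 4 when arrays were left out, the 4 being reached without GREM1 replicate 3. In that comparison the block brought Adgrg2 (adjusted p = 0.0128) and Adgrg6 (adjusted p = 0.0104) past the threshold. Deviations of its same-numbered arrays correlated with r of 0.0885 to 0.423. In the same comparison the block gave 8 higher and 3 lower calls in the cyclic AMP arm (adding Adcy1, Adcy2, Adcy7, Prkar2a, Adcy8 and Prkacb), added Col3a1 among ligands, Adgrl1 among other adhesion GPCRs, and the markers Myf5, Rgs5 and Erbb3. Array weights also brought Adgrg2 past it (adjusted p = 0.0334). The block changed no other call of the receptors than these and that of Adgrg2 with GREM1. Adgrg2 was not tested at the 50th percentile filter. With arrays left out, Adgrg2 in BMP4 minus control ran from -0.13 to 0.0052. The cause of these changes was not tested.

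Over all genes, 20 passed for BMP4 against control, and 65 with the block, 68 with array weights, 5 with only the groups compared, 31 at the 50th percentile filter and 2 to 17 with arrays left out. For GREM1 against control 734 passed, and 1985 with the block, 437 with only the groups compared and 245 to 901 with arrays left out. For BMP4 against GREM1 1105 passed, and 2192 with the block, 1768 with array weights and 563 to 1159 with arrays left out. How far signal over background limits single probes is not analysed here.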
